A study of Mus musculus with 18 samples.

Results

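The smooth muscle contractile apparatus was followed here as 34 genes chosen by name: actin filament genes (12), myosin genes (4), regulators of myosin phosphorylation (4), genes of dense bodies and intermediate filaments (12) and the transcriptional regulators Myocd and Srf (2). They are 34 of the 54281 genes in the count table, and each has 1 row. Their RNA was measured in whole descending aortas of 18 male C57BL/6 mice: 6 HGPS mice (genotype LMNAG609G) aged 64 to 75 d, 6 wild-type (WT) mice of the 2-mo group, of which 5 were 62 d and 1 was 95 d old, and 6 WT mice of the 24-mo group aged 609 to 762 d. The mutation of the HGPS mice, a mouse model of Hutchinson–Gilford Progeria Syndrome, makes cells splice Lmna RNA into a form that encodes progerin. The study describes its HGPS mice as knock-in animals homozygous for the change, which lies in the endogenous gene of every cell, and names heterozygous animals as the donated line. The labels give the allele without the zygosity. Each aorta contained the intima, media and adventitia, so the values are averages over all cells of the wall. Changes are given as log2 fold changes with their standard error (SE).

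Contraction of a smooth muscle cell begins when calcium and calmodulin activate myosin light chain kinase, which phosphorylates the regulatory light chain and lets myosin pull on actin filaments. Myosin phosphatase reverses the step. The filaments are anchored in dense bodies and, at the membrane, in adhesion plaques, and desmin and synemin filaments link these anchors. In the aorta the contractile smooth muscle cells form the media. Most genes of the apparatus are known targets of SRF, a transcription factor that binds the CArG box, and of its coactivator myocardin.

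Library totals ranged from 12413229 to 30844775 counts, and no pair of mice within a group agreed within sampling noise (the chi-square over its degrees of freedom was 7.64 to 93.6 for 45 pairs). All 34 members had at least 10 counts in at least 6 mice and were tested among 15210 genes, so none was lost to the filter on low counts. Lmna measured 416 ± 60.7 CPM (SD, n = 6) in 2-mo WT, 577 ± 82.3 in HGPS and 418 ± 73.2 in 24-mo WT. The gene count sums all Lmna transcripts and cannot check the mutation. CPM is counts per 1000000 with library sizes scaled by TMM, and a gene is called higher or lower where edgeR's quasi-likelihood test gave a Benjamini-Hochberg adjusted p under 0.05 over all 15210 genes.

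The apparatus was strongly expressed in every mouse. Its members took 6.89% to 8.43% of all counts in 2-mo WT (median 8.11%), 4.58% to 6.31% in HGPS (median 5.05%) and 7.10% to 8.25% in 24-mo WT (median 7.99%). The HGPS range lay below both WT ranges, and the ranges of young and old WT mice overlapped. Per kilobase of the mean length of a gene's annotated transcripts, the level of Acta2 was the highest of all members, with 11461 CPM per kb in 2-mo WT, 7544 in HGPS and 9884 in 24-mo WT. Acta2 encodes smooth muscle α-actin, the main actin of the vascular thin filament. After it in 2-mo WT came the regulatory light chain gene Myl9 (5726 CPM per kb), Tagln (5655), Flna (4915) and Myl6 (3353). The same 5 genes led in HGPS and in 24-mo WT, in other orders, and with the longest annotated transcript as the length Myl6 moved from the fifth to the eighth place in 2-mo WT. Myh11, the smooth muscle myosin heavy chain and a marker that separates smooth muscle from fibroblasts, ranked 7 of 34 in 2-mo WT, 6 in 24-mo WT and 11 in HGPS, and with the longest transcript 6, 6 and 8. Synm was the lowest member in all 3 groups by the mean length (16.8 CPM per kb in 2-mo WT), and by the longest transcript Nexn was the lowest in HGPS and 24-mo WT.

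In HGPS aortas most of the apparatus was lower than in 2-mo WT. Of 34 members, 28 were lower and 2 higher by edgeR's test, where 21.2% of all tested genes were lower and 22% higher. The 2 that rose were Tpm4 and Synm, and the 4 that passed in neither direction were Cald1, Tagln, Des and Myocd. The median member changed by -0.60 on the log2 scale (range -1.18 to 0.55), beside a median of 0.00 over all tested genes. At the cut-offs the study used for its gene lists (adjusted p under 0.001 and at least 1.5-fold), 18 members passed, all lower, against 9.50% of all genes (1445) passing in either direction. That share belongs to the edgeR fit, and the paper reports a longer list at these cut-offs with DESeq2. For 26 members the 6 HGPS mice did not overlap the 6 2-mo WT mice (24 lower, 2 higher), a separation seen in 21.9% of all genes. In bulk RNA, fewer smooth muscle cells and less RNA of these genes per cell cannot be told apart.

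In old WT aortas few members differed from the young level. Against 2-mo WT, 3 members were higher (Synm, Des and Cald1) and 0 lower by edgeR's test, where 6.29% of all genes were higher and 5.38% lower. At an unadjusted p under 0.05, 5 members were lower (Acta2, Dstn, Myh10, Myl6 and Vcl) and 4 higher, with no share of all genes computed. DESeq2 called 2 lower, Myh10 and Vcl, where it called 13.7% of all genes in either direction. Without 2-mo WT replicate 1 the same 2 genes were lower by edgeR, and without 24-mo WT replicate 1 there were 3, with Ppp1r14a. No share of all genes was computed for the fits without 1 mouse. The median was 0.03 beside 0.01 over all genes. No member passed the study's cut-offs, which 2.00% of all genes did, and the 2 groups were apart for 2 members, Synm and Cald1 (6.28% of all genes).

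Set directly against 24-mo WT, HGPS aortas had 29 members lower and 1 higher (Tpm4), where 23.6% of all genes were lower and 23.8% higher. Tagln, Dstn, Synm and Myocd passed in neither direction. The median was -0.51 beside -0.01 over all genes, 16 members passed the study's cut-offs, all lower (12.1% of all genes in either direction), and 24 were apart (22.2% of all genes). Both comparisons of HGPS use the same 6 HGPS mice, and both comparisons with 2-mo WT use the same 6 control mice, so the 3 sets of values are not independent.

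**Figure D1:**
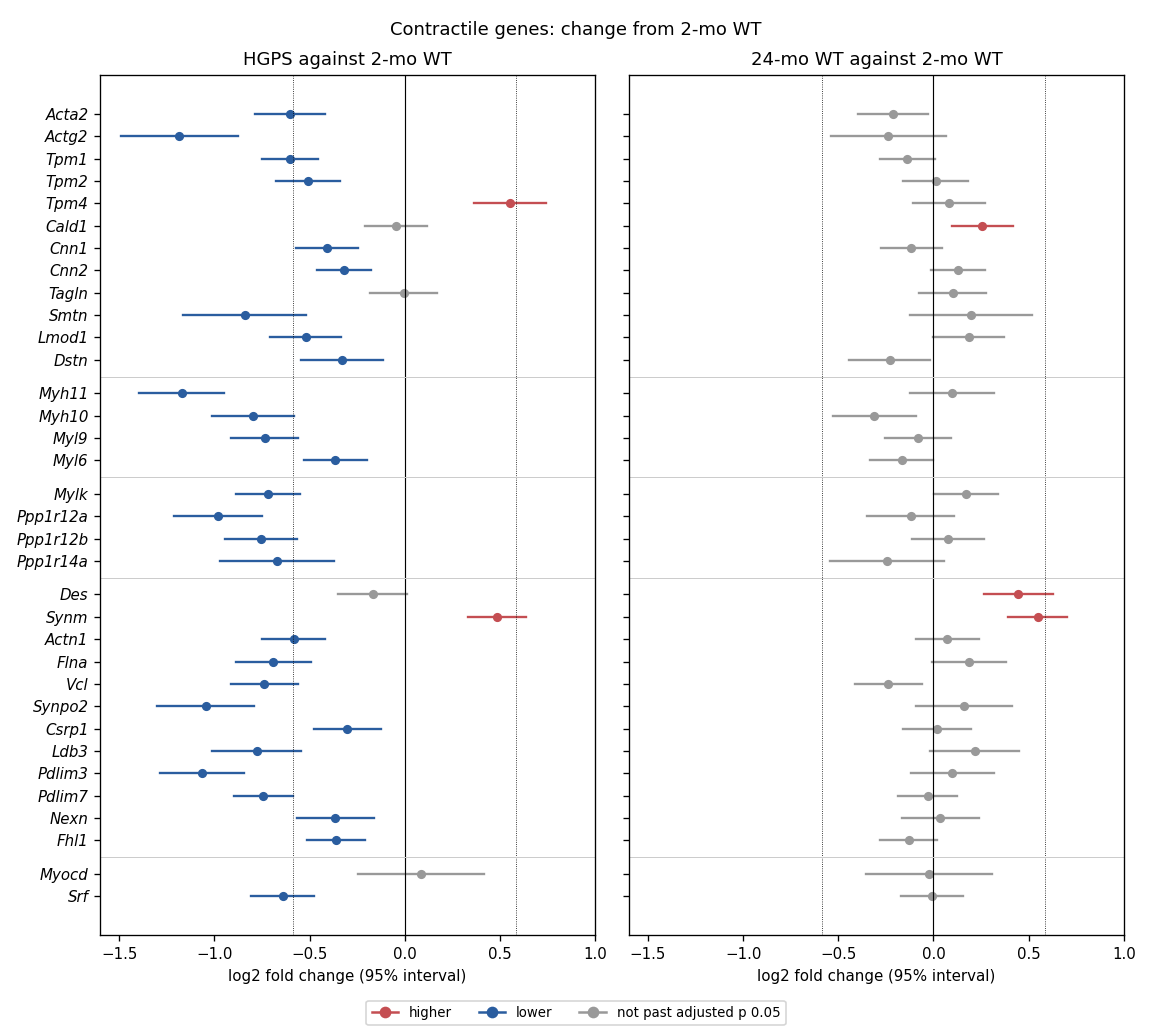
Log2 fold change of each of the 34 genes, grouped by role from actin filaments at the top to the transcriptional regulators at the bottom, for HGPS (left) and 24-mo WT (right) against 2-mo WT; bars are 95% intervals, colours mark the call at an adjusted p of 0.05 and dotted lines a 1.5-fold change. In HGPS 28 genes lie left of 0 and are called lower, with Tpm4 and Synm on the other side, whereas in 24-mo WT 31 of the 34 are grey.

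The drop was shared by all 6 HGPS mice. The median member, as a log2 difference from the mean of 2-mo WT, lay between -0.72 and -0.38 in single HGPS mice, between -0.16 and 0.08 in 2-mo WT and between -0.10 and 0.16 in 24-mo WT. HGPS replicate 5 lay closest to 2-mo WT and HGPS replicate 6 farthest from it.

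**Figure D2:**
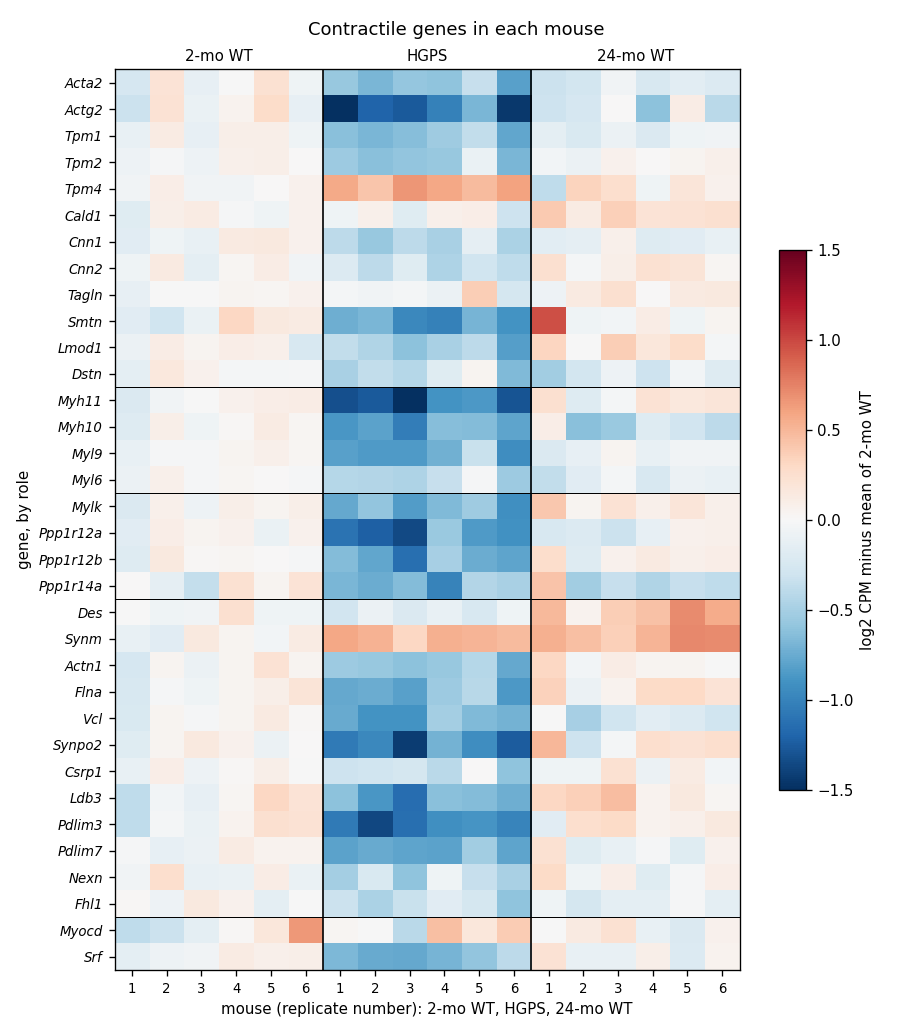
Log2 CPM of each member (rows, by role) in each mouse (columns), as the difference from the mean of 2-mo WT; blue is lower and red higher, and the colour scale ends at 1.5 in both directions. The 6 HGPS columns are blue in most rows, with red rows for Tpm4 and Synm, a near-white row for Tagln, and a single dark red cell for Smtn in 24-mo WT replicate 1.

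Genes listed as markers of other cells moved between the same groups. Which cells of the wall their RNA came from was not tested, and smooth muscle cells could hold part of the pericyte, cardiac and visceral lists. Over all tested genes 21.2% were lower and 22% higher in HGPS against 2-mo WT, and 5.38% and 6.29% in 24-mo WT. Brown fat markers were higher in HGPS for 8 of 10 (summed CPM 544 to 1846 against 186 to 711 in 2-mo WT), white fat markers for 6 of 8 with 1 lower (1146 to 3252 against 1035 to 1570.2), macrophage markers for 10 of 10 (933 to 1511 against 495 to 747) and cell cycle genes for 8 of 8 (36.7 to 63.7 against 10.1 to 18.8). Of the brown fat markers, Ucp1 averaged 431 CPM in HGPS and 94.2 in 2-mo WT, and Dio2 218 and 115. Fibroblast markers were lower for 6 of 10 (4094 to 5302 against 6394 to 7281), pericyte markers for 6 of 6 (1728 to 2215 against 2856 to 3386) and visceral smooth muscle genes, of which Actg2 and Des are also members, for 4 of 6 (779 to 1045 against 1301 to 1708). Of 10 endothelial markers 1 was higher and 0 lower (1335 to 1783 against 845 to 2066), counts not above the shares of all genes. Skeletal muscle genes, summing to 16.3 to 34.5 CPM against 34.95 to 81.6 and mostly Tcap, passed the count filter for 6 of 12 (2 higher, 2 lower), and cardiac genes, 48.1 to 77.7 against 72.1 to 101 and mostly Ryr2, for 7 of 10 (4 higher, 1 lower). Schwann cell genes gave 170.1 to 206 against 192 to 249, mostly Pmp22, with 5 of 8 tested (1 higher, 2 lower). In 24-mo WT the summed pericyte (5055 to 6596 CPM, 2 of 6 higher than in 2-mo WT) and cardiac (111 to 202) markers lay above both young groups, and the summed macrophage (441 to 916), brown fat (189.8 to 477), fibroblast (5396 to 6813) and endothelial (723 to 2046) markers overlapped those of 2-mo WT, although 4 of 10 fibroblast markers were lower and 0 higher. Visceral smooth muscle genes summed to 1023 to 1272 CPM, below all 2-mo WT mice (2 of 6 lower, 1 higher), and of 5 Schwann cell genes tested 4 were higher and 1 lower. No listed marker was at 0 in all 18 mice. In a fit that also held scores of the brown fat and the skeletal muscle lists, 23 members were lower and 2 higher in HGPS against 2-mo WT, with a median of -0.56, where 21.8% of all genes were called in either direction (without the scores 21.2% were lower and 22% higher). In that fit 6 members passed the study's cut-offs, for which no share of all genes was computed. Dstn, Myl6, Csrp1, Nexn and Fhl1 lost their calls. Against 24-mo WT, 20 were lower with a median of -0.46, where 23.6% of all genes were called in either direction. The cut-offs were passed by 4 members, again with no share of all genes computed. There Acta2, Tpm2, Cald1, Cnn1, Myh10, Myl6, Ppp1r14a, Csrp1 and Fhl1 lost their calls. The part of the other lists in the result was not tested.

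Of the regulators at the head of the program, Srf was lower in HGPS and Myocd passed the test in no comparison. Srf (ENSMUSG00000015605, chr17:46548329-46556175 in GRCm38), the MADS-box factor that binds CArG boxes, measured 57.2, 64.1 and 68.96 CPM in 2-mo WT (lowest, median and highest of 6 mice), 37.4, 39.5 and 48.6 in HGPS and 55.1, 62.5 and 73.6 in 24-mo WT. Every HGPS mouse was below every WT mouse of either age, and the young and old WT ranges overlapped. Srf fell in HGPS with a log2 fold change of -0.64 (SE 0.08, adjusted p = 4.90e-06) against 2-mo WT and -0.63 (SE 0.08, adjusted p = 3.15e-06) against 24-mo WT. Myocd (ENSMUSG00000020542, chr11:65176561-65269989), the smooth and cardiac muscle coactivator of SRF, measured 147, 184 and 301 CPM in 2-mo WT, 144, 206 and 262 in HGPS and 164, 195 and 224 in 24-mo WT. Its groups overlapped throughout, and 2-mo WT replicate 6, the 95-d mouse, was the highest of all 18. The difference between HGPS and 2-mo WT was 0.09 (95% interval -0.24 to 0.42, adjusted p = 0.694), an interval that still allows a change in either direction. Ratios within a mouse, in which library scaling cancels, are given as descriptions with no test. The log2 ratio of Myocd to Srf was 1.59 ± 0.31 (SD, n = 6) in 2-mo WT, 2.34 ± 0.25 in HGPS and 1.62 ± 0.22 in 24-mo WT. HGPS overlapped 2-mo WT in this ratio, through the same 95-d mouse, and was apart from 24-mo WT.

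The CArG box was then looked for in the promoters, because it is the site through which SRF is known to act. RefSeq promoter windows of 250 bases before to 50 bases after a start were matched by symbol for 29 of the 34 members (35 windows, GRCm38.p6), and Myh11, Actg2, Nexn, Tagln and Myocd were not matched. A CArG box with the strict consensus, which reads the same on both strands, was present for 7 of the 29 (24.1%): Myl9, Cnn2, Myl6, Vcl, Ldb3, Srf and Fhl1. Of all genes with such windows it was present for 1.81% (488 of 27025), and of tested genes for 1.60% (175 of 10909). Boxes with a departure from the consensus and boxes outside these windows were not counted. The stretches of 4 of these promoters are shown 5′ to 3′ on the strand of the gene, with the boxes in capitals, for Myl9 at chr2:156775278-156775337 (plus strand), Cnn2 at chr10:79988519-79988578 (plus), Vcl at chr14:20929148-20929205 (plus) and Srf, which holds 2 boxes, at chr17:46556190-46556269 (minus). No annotated exon overlaps them, and the Srf stretch lies inside the span of Gm26904.
Myl9: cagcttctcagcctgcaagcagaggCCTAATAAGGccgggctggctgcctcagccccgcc
Cnn2: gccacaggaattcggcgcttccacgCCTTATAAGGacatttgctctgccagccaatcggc
Vcl: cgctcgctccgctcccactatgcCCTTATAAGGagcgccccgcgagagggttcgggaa
Srf: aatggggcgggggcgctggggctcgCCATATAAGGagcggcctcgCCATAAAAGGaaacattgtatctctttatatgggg
The box begins 161 bases before the RefSeq start in Myl9, 56 in Cnn2 and 227 in Vcl, and the Srf boxes begin 82 and 62 bases before the start. The match in Myl6 lies in a coding exon, upstream of an internal start. That in Fhl1 also lies inside its gene, upstream of an internal start and outside the exons. In HGPS against 2-mo WT all 7 genes with a strict match were lower (median log2 fold change -0.64). Of the 22 with windows and no strict match 18 were lower and 2 higher (median -0.60). Over all tested genes 21.2% were lower and 22% higher. These 22 may hold boxes that were not counted, so the counts and medians do not compare genes with and without an SRF site. In 24-mo WT none of the 7 was called, where 5.38% of all tested genes were lower and 6.29% higher. Their median was -0.08 against 0.07 for the 22 without a strict match.

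Both smooth muscle actins were lower in HGPS. Acta2 (ENSMUSG00000035783, chr19:34241090-34255590) measured 13716, 15904 and 19116 CPM in 2-mo WT, 9279, 10799.8 and 12769.6 in HGPS and 13038, 13993 and 15743 in 24-mo WT. All HGPS mice were below all WT mice, and the WT ages overlapped. Acta2 fell to 0.658 of its 2-mo WT level, a log2 fold change of -0.60 (SE 0.09, adjusted p = 3.03e-05), and against 24-mo WT of -0.39 (SE 0.09, adjusted p = 0.00127). Actg2, the γ-actin isoform that prevails in visceral smooth muscle, measured 202, 247 and 303 CPM in 2-mo WT, 83.3, 107 and 156 in HGPS and 164, 207 and 272 in 24-mo WT. It showed the lowest value of all 34 members in HGPS against 2-mo WT, -1.18 (SE 0.15, adjusted p = 5.47e-06), or 0.440 of the young level. The mice of HGPS lay below those of both WT groups. Between the 2 actins, the log2 ratio of Acta2 to Actg2 was 6.02 ± 0.06 in 2-mo WT and 6.62 ± 0.25 in HGPS, with no overlap, and 6.05 ± 0.23 in 24-mo WT, which overlapped both. The coding sequences of the 2 isoforms are 84.2% identical, with a longest shared run of 29 bases.

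The tropomyosins, which lie along the actin filament, moved in opposite directions. Tpm1 measured 1522, 1670.3 and 1801 CPM in 2-mo WT, 963, 1068 and 1279 in HGPS and 1411, 1525 and 1591 in 24-mo WT, and its HGPS range was apart from both others. The log2 fold change was -0.60 (SE 0.07, adjusted p = 2.88e-06) against 2-mo WT. Tpm2 changed by -0.51 (SE 0.08, adjusted p = 7.37e-05), from 1682 ± 84.1 to 1183 ± 194 CPM (mean ± SD, n = 6), with 1695 ± 72.6 in 24-mo WT. Tpm4, a tropomyosin that nonmuscle cells also use, ran the other way: 226, 231 and 252 CPM in 2-mo WT, 314, 350.4 and 373 in HGPS and 179.7, 256 and 295 in 24-mo WT. Every HGPS mouse was above every WT mouse of both ages. Tpm4 rose by 0.55 (SE 0.09, adjusted p = 8.53e-05) against 2-mo WT and 0.47 (SE 0.09, adjusted p = 0.000274) against 24-mo WT, the single member higher in both. The Tpm2 to Tpm4 log2 ratio was 2.84 ± 0.09 in 2-mo WT, 1.77 ± 0.26 in HGPS and 2.79 ± 0.26 in 24-mo WT, and that of Tpm1 to Tpm4 was 2.82 ± 0.10, 1.66 ± 0.19 and 2.62 ± 0.26. In both ratios the HGPS mice were apart from all WT mice, with mean differences from 2-mo WT of -1.07 and -1.16.

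**Figure D3:**
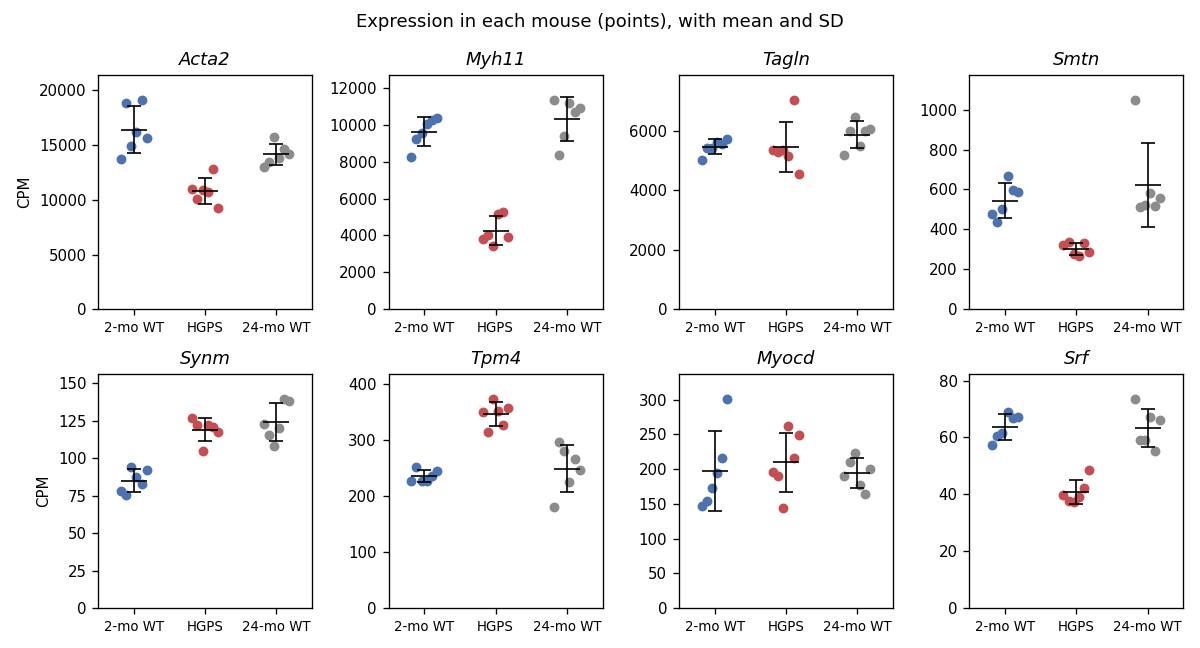
CPM of 8 members in each of the 18 mice (points), with the mean and SD of each group in black and each axis starting at 0. Myh11, Acta2, Smtn and Srf separate HGPS from both WT groups downward and Tpm4 upward, Synm separates 2-mo WT from the other groups, and the groups overlap for Tagln and Myocd.

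Among the actin-binding proteins, Cnn1 and Smtn fell in HGPS and Tagln and Cald1 passed in neither direction. Tagln (SM22, ENSMUSG00000032085, chr9:45929619-45936058), an actin cross-linker often used to mark smooth muscle, measured 5004, 5491 and 5714 CPM in 2-mo WT, 4544, 5300.5 and 7029.5 in HGPS and 5182, 5992 and 6457 in 24-mo WT. The groups overlapped, and HGPS replicate 5 was the highest of all 18 mice. The log2 fold change of Tagln between HGPS and 2-mo WT was -0.0048 (95% interval -0.18 to 0.17, adjusted p = 0.970), and against 24-mo WT it was -0.11 (adjusted p = 0.312). Its sign against 2-mo WT was positive under 3 other scalings, up to 0.04, and no scaling gave a call. Without HGPS replicate 5 the difference from 24-mo WT was -0.19 and passed the test. Cnn1, smooth muscle calponin, measured 1226, 1387 and 1538 CPM in 2-mo WT, 932, 1024 and 1263 in HGPS and 1214, 1251 and 1465 in 24-mo WT, and HGPS overlapped both WT groups through its replicate 5. Cnn1 fell, with a log2 fold change of -0.41 (SE 0.08, adjusted p = 0.000374) against 2-mo WT. Its relative Cnn2, which nonmuscle cells also express, fell, with a log2 fold change of -0.32 (SE 0.07, adjusted p = 0.000897), from 216 ± 16.3 to 173 ± 13.5 CPM without overlap, and the log2 ratio of Cnn1 to Cnn2 overlapped between HGPS (2.59 ± 0.14) and 2-mo WT (2.68 ± 0.12).

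Smtn, smoothelin, which is tied to the fully contractile state, measured 436, 545 and 666 CPM in 2-mo WT, 266, 307 and 336 in HGPS and 514, 539.6 and 1048 in 24-mo WT. The HGPS mice were below all others, and 24-mo WT replicate 1 stood far above the rest of its group. Smtn fell, with a log2 fold change of -0.84 (SE 0.15, adjusted p = 0.000264) against 2-mo WT and -1.04 (SE 0.15, adjusted p = 2.39e-05) against 24-mo WT. Lmod1, the smooth muscle actin nucleator leiomodin, measured 574, 706 and 735 CPM in 2-mo WT, 383, 489.8 and 527 in HGPS and 665, 791 and 874 in 24-mo WT, and the HGPS range was apart from both. It fell, with a log2 fold change of -0.52 (SE 0.09, adjusted p = 0.000149) and -0.70 (SE 0.09, adjusted p = 4.34e-06) in the same comparisons. Cald1, caldesmon, which holds back the interaction of actin and myosin, gave -0.05 in HGPS against 2-mo WT (adjusted p = 0.671; 856 ± 96.3 against 884 ± 68.7 CPM). In 24-mo WT, at 1056 ± 73.8 CPM, it rose by 0.26 (SE 0.08, adjusted p = 0.0344) without overlap, a call lost in 6 of the 12 fits that left out 1 mouse, with the marker scores, with no count filter and with a replicate block. Dstn, destrin, which takes actin filaments apart, fell, with a log2 fold change of -0.33 (SE 0.10, adjusted p = 0.0141) against 2-mo WT with overlapping mice (2542 to 4149 against 3632 to 4474 CPM). The call was lost with the marker scores (-0.088, adjusted p = 0.689) and with HGPS replicates 4 to 6 alone (-0.25, adjusted p = 0.172).

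All 4 myosin genes fell in HGPS, Myh11 the most. Myh11 (ENSMUSG00000018830, chr16:14194535-14291372) measured 8265, 9795 and 10380.5 CPM in 2-mo WT, 3411, 3962 and 5276 in HGPS and 8369, 10793 and 11342 in 24-mo WT. The highest HGPS mouse was well below the lowest WT mouse, and the WT ages overlapped. Myh11 fell to 0.444 of the 2-mo WT level, -1.17 (SE 0.11, adjusted p = 2.05e-07), and to 0.414 of the 24-mo WT level, -1.27 (SE 0.11, adjusted p = 2.89e-08). Between the WT ages the difference was 0.10 (95% interval -0.12 to 0.32, adjusted p = 0.612). Myh10, a nonmuscle myosin heavy chain that smooth muscle also contains, measured 917, 1068 and 1146 CPM in 2-mo WT, 512, 605 and 673 in HGPS and 681, 829.9 and 1126 in 24-mo WT. Its HGPS mice were apart from both WT groups. Myh10 fell, with a log2 fold change of -0.80 (SE 0.10, adjusted p = 9.54e-06) against 2-mo WT and -0.49 (SE 0.10, adjusted p = 0.00078) against 24-mo WT, and in 24-mo WT it gave -0.31 (adjusted p = 0.0575).

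The balance of the heavy chains differed between all 3 groups. The log2 ratio of Myh11 to Myh10 was 3.05, 3.21 and 3.27 in 2-mo WT (lowest, median, highest), 2.68, 2.74 and 2.98 in HGPS and 3.33, 3.63 and 3.77 in 24-mo WT, and no group overlapped another. HGPS lay -0.39 from 2-mo WT and 24-mo WT lay 0.42 from it, in opposite directions. The ratios to Tagln were added after its values were seen. The log2 ratio of Myh11 to Tagln was 0.81 ± 0.06 in 2-mo WT, -0.36 ± 0.23 in HGPS and 0.81 ± 0.26 in 24-mo WT, and HGPS was apart from both WT groups. Acta2 to Tagln was 1.58 ± 0.17, 0.99 ± 0.08 and 1.27 ± 0.07, with the 3 groups apart. Such differences do not depend on library scaling, and they show unequal change of members.

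**Figure D4:**
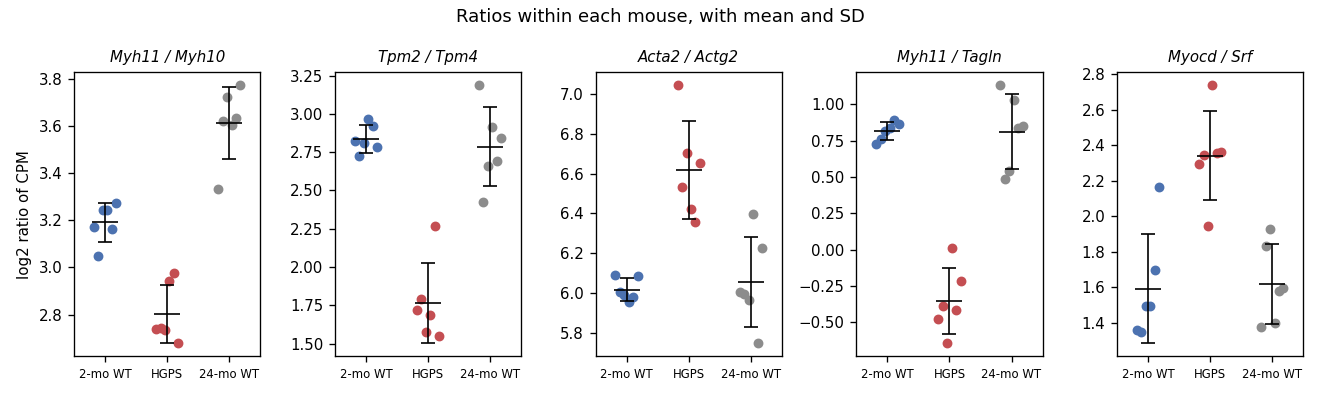
Log2 ratio of the CPM of 2 members within each mouse (points), with mean and SD, for 5 pairs; the vertical axes differ between panels and do not start at 0. Myh11 to Myh10 is apart in all 3 groups, Tpm2 to Tpm4 and Myh11 to Tagln are lower in HGPS than in any WT mouse, and Acta2 to Actg2 and Myocd to Srf are higher in HGPS, with overlap for 24-mo WT and for 2-mo WT, respectively.

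Both light chains followed. Myl9, the regulatory chain on which contraction is switched, measured 3287, 3563 and 3749 CPM in 2-mo WT, 1857, 1994 and 2817 in HGPS and 3061, 3354 and 3644 in 24-mo WT. HGPS was apart from both, although its replicate 5 stood far above the other 5. Myl9 fell, with a log2 fold change of -0.74 (SE 0.08, adjusted p = 2.24e-06) against 2-mo WT. Myl6, the essential chain found in smooth and nonmuscle myosin, fell, with a log2 fold change of -0.36 (SE 0.08, adjusted p = 0.00118) with overlapping mice (2234 ± 308 against 2874 ± 107 CPM). Against 24-mo WT it gave -0.20 (adjusted p = 0.0473), a call lost in 8 of the 12 fits that left out 1 mouse. It was also lost with 3 other scalings, with no count filter, in a fit of the 2 groups alone and with the marker scores. With the marker scores the call against 2-mo WT was lost too (-0.21, adjusted p = 0.180).

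Of the members that set light chain phosphorylation, the kinase, the phosphatase targeting subunits Ppp1r12a and Ppp1r12b and the phosphatase inhibitor fell in HGPS. Ppp1cb, the catalytic subunit of myosin phosphatase and no member, is named here after its value was seen and gave a log2 fold change of -0.05 against 2-mo WT (adjusted p = 0.660) and -0.04 against 24-mo WT (adjusted p = 0.706). Mylk, myosin light chain kinase, measured 1542, 1872 and 1915 CPM in 2-mo WT, 948, 1095 and 1240.4 in HGPS and 1848, 1969 and 2386 in 24-mo WT. No HGPS mouse reached the WT range of either age. Mylk fell, with a log2 fold change of -0.72 (SE 0.08, adjusted p = 1.98e-06) against 2-mo WT and -0.89 (SE 0.08, adjusted p = 7.75e-08) against 24-mo WT. Ppp1r12a, which encodes MYPT1, a targeting subunit of myosin phosphatase, measured 791, 922 and 952 CPM in 2-mo WT, 349, 443 and 603 in HGPS and 713, 793 and 941 in 24-mo WT. It fell to 0.507 of the young level, -0.98 (SE 0.11, adjusted p = 2.07e-06), with HGPS apart from both WT groups. Its relative Ppp1r12b measured 935, 1075 and 1179 CPM in 2-mo WT, 487, 629 and 755 in HGPS and 929.7, 1131 and 1283 in 24-mo WT, again with HGPS apart from both, and fell, with a log2 fold change of -0.76 (SE 0.09, adjusted p = 3.99e-06). The log2 ratio of Ppp1r12b to Ppp1r12a overlapped between all groups (0.26 ± 0.06 in 2-mo WT and 0.50 ± 0.17 in HGPS). Ppp1r14a, an inhibitor of myosin phosphatase, measured 50.02, 64.97 and 75.1 CPM in 2-mo WT, 31.97, 40.3 and 47.1 in HGPS and 44.6, 49.7 and 85.7 in 24-mo WT. HGPS was apart from 2-mo WT and overlapped 24-mo WT. It fell, with a log2 fold change of -0.67 (SE 0.14, adjusted p = 0.000965) against 2-mo WT and -0.43 (SE 0.14, adjusted p = 0.0193) against 24-mo WT, and the latter call was lost without 24-mo WT replicate 1.

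Of the 12 genes that anchor the filaments, 10 fell in HGPS. Pdlim3, a PDZ-LIM protein that binds α-actinin, measured 256, 337 and 395 CPM in 2-mo WT, 130.05, 164 and 182 in HGPS and 298, 362 and 409 in 24-mo WT. It fell to 0.478 of the young level, -1.06 (SE 0.10, adjusted p = 4.86e-07), and no HGPS mouse overlapped a WT mouse. Synpo2 (myopodin), which bundles actin at dense bodies, measured 1036, 1193 and 1302 CPM in 2-mo WT, 436, 582 and 715 in HGPS and 945, 1377 and 1656 in 24-mo WT. The log2 fold change was -1.04 (SE 0.12, adjusted p = 2.99e-06) against 2-mo WT and -1.21 (SE 0.12, adjusted p = 2.87e-07) against 24-mo WT, apart in both. Ldb3, a related PDZ-LIM protein, measured 83.8, 109 and 135 CPM in 2-mo WT, 49.5, 67.6 and 71.2 in HGPS and 111, 128 and 149.98 in 24-mo WT. Pdlim7, another, measured 270.4, 297 and 319.8 CPM in 2-mo WT, 168, 169 and 205 in HGPS and 259, 280.5 and 343 in 24-mo WT. For both genes HGPS was below all WT mice and the WT ages overlapped. Against 2-mo WT the log2 fold change was -0.78 (SE 0.11, adjusted p = 2.67e-05) for Ldb3 and -0.74 (SE 0.07, adjusted p = 5.70e-07) for Pdlim7.

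The larger linkers fell as well. Flna, filamin A, which cross-links actin into networks, measured 13471, 15967 and 18178 CPM in 2-mo WT, 8727, 9379 and 11872 in HGPS and 14935, 18839 and 20209.7 in 24-mo WT. It fell, with a log2 fold change of -0.69 (SE 0.09, adjusted p = 1.47e-05) against 2-mo WT and -0.88 (SE 0.09, adjusted p = 6.06e-07) against 24-mo WT, apart in both. Vcl, vinculin of the adhesion plaques, measured 799.5, 951 and 1026 CPM in 2-mo WT, 499.8, 559.9 and 656 in HGPS and 661, 786 and 929 in 24-mo WT, and fell, with a log2 fold change of -0.74 (SE 0.08, adjusted p = 2.42e-06) against 2-mo WT. In 24-mo WT it gave -0.24 (adjusted p = 0.0735). Actn1, α-actinin, the main cross-linker of dense bodies, measured 1267, 1549.7 and 1746 CPM in 2-mo WT, 889, 1016 and 1125 in HGPS and 1461, 1550.2 and 1872 in 24-mo WT. HGPS was apart from both WT groups, with a log2 fold change of -0.58 (SE 0.08, adjusted p = 1.31e-05) against 2-mo WT. The other anchoring genes that fell were the LIM proteins Csrp1 (-0.30, SE 0.08, adjusted p = 0.00736) and Fhl1 (-0.36, SE 0.07, adjusted p = 0.000575) and the actin-binding Nexn (-0.36, SE 0.10, adjusted p = 0.00490), given as log2 fold changes against 2-mo WT. Their 2-mo WT and HGPS means were 2095 ± 124 and 1701 ± 234 CPM for Csrp1, 1684 ± 120.4 and 1312 ± 138 for Fhl1 and 35.4 ± 3.77 and 27.5 ± 3.96 for Nexn, and the mice overlapped for Csrp1 and Nexn. With the marker scores the adjusted p was 0.191 for Csrp1, 0.0851 for Fhl1 and 0.0718 for Nexn, and with HGPS replicates 4 to 6 alone it was 0.0625 for Nexn.

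The intermediate filament genes Synm and Des were higher in old than in young WT aortas, and neither was lower in HGPS than in 2-mo WT by the test. Synm, synemin, which joins desmin filaments to actin-linked proteins, measured 75.6, 84.9 and 93.9 CPM in 2-mo WT, 105, 122 and 127 in HGPS and 108, 121 and 139.6 in 24-mo WT. The 2-mo WT mice were below all others, and HGPS and 24-mo WT overlapped. Synm rose by 0.49 (SE 0.07, adjusted p = 4.18e-05) in HGPS and 0.55 (SE 0.07, adjusted p = 4.48e-05) in 24-mo WT, both against the same 2-mo WT mice, and HGPS against 24-mo WT gave -0.06 (95% interval -0.21 to 0.09, adjusted p = 0.513). Synm overlaps Ttc23 on the opposite strand, which averaged 423 counts beside 2121 for Synm. Vcl likewise overlaps Ap3m1 (1314 counts beside 14327) and Tagln overlaps Pcsk7 (563 beside 107158), both on the opposite strand. Des, desmin, the muscle intermediate filament, measured 49.1, 49.5 and 61.01 CPM in 2-mo WT, 42.2, 46.001 and 49.02 in HGPS and 53.2, 70.8 and 84.4 in 24-mo WT. Its 24-mo WT range overlapped 2-mo WT through 1 high 2-mo mouse and lay above HGPS. Des rose in 24-mo WT by 0.45 (SE 0.09, adjusted p = 0.00172), a call lost with the marker scores (adjusted p = 0.0809), and HGPS was below 24-mo WT, with -0.61 (SE 0.09, adjusted p = 1.28e-05). In HGPS against 2-mo WT the mice were just apart, yet the difference of -0.17 did not pass (95% interval -0.35 to 0.01, adjusted p = 0.126). In a fit of these 2 groups alone it passed (-0.17, adjusted p = 0.0406). The Des to Synm log2 ratio, also chosen after the values were seen, was -0.72 ± 0.17 in 2-mo WT, -1.37 ± 0.13 in HGPS and -0.83 ± 0.15 in 24-mo WT, with HGPS apart from both.

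By role, the medians in HGPS against 2-mo WT were -0.46 for the 12 actin filament genes (9 lower, 1 higher), -0.77 for the 4 myosin genes (4 lower), -0.74 for the 4 regulators of phosphorylation (4 lower) and -0.64 for the 12 anchoring genes (10 lower, 1 higher). Over all tested genes 21.2% were lower and 22% higher in this comparison, with a median of 0.00. In 24-mo WT against 2-mo WT the medians by role were 0.05, -0.12, -0.02 and 0.09, beside 0.01 over all tested genes.

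Other genes of contraction, named from a list of 44 regulators, nonmuscle relatives and adhesion partners, were also more often lower than higher in HGPS. Of them 24 were lower and 4 higher in HGPS against 2-mo WT (median -0.26). In 24-mo WT 2 were lower and 2 higher (median 0.02), and in HGPS against 24-mo WT 21 were lower and 5 higher (median -0.22). Over all tested genes 21.2% were lower and 22% higher in the first comparison, 5.38% and 6.29% in the second, and 23.6% and 23.8% in the third. The counts of 24-mo WT lie near these shares. Among those called whose groups did not overlap, Myh9, a nonmuscle myosin heavy chain related to Myh10, had the highest rise in HGPS, 0.97 (SE 0.10, adjusted p = 5.70e-07). Myl12a, a nonmuscle regulatory light chain, rose by 0.77 (SE 0.10, adjusted p = 5.67e-06). The coding sequence of Myl12a is 85.7% identical to that of Myl9 (longest shared run 35 bases) and 96.5% to that of Myl12b (102 bases). Those of Myh9 and Myh10 are 72.8% identical, with a longest shared run of 122 bases. Some reads could be shared within these pairs, which was not tested. Myl12b, named here for this identity, passed in neither direction in HGPS against 2-mo WT (-0.12, adjusted p = 0.397). Itga8, an integrin chain of smooth muscle, fell, with a log2 fold change of -0.93 (SE 0.09, adjusted p = 3.53e-07), and Prkg1, the cGMP-dependent kinase that relaxes smooth muscle, gave -0.69 (SE 0.09, adjusted p = 1.65e-05). Against 24-mo WT, Flnc (filamin C), Dmd (dystrophin) and the kinase Rock1 had the largest falls in HGPS, -0.96 (SE 0.13, adjusted p = 9.29e-06), -0.90 (SE 0.10, adjusted p = 1.03e-06) and -0.76 (SE 0.14, adjusted p = 0.000157), and Myl12a and Myh9 again rose, by 0.96 (SE 0.10, adjusted p = 2.49e-07) and 0.89 (SE 0.10, adjusted p = 6.80e-07). In 24-mo WT against 2-mo WT the called changes without overlap included rises of Synpo (0.44, SE 0.09, adjusted p = 0.00274) and Rock2 (0.31, SE 0.08, adjusted p = 0.0131) and log2 fold changes below 0 of Cav1 (-0.46, SE 0.07, adjusted p = 0.00019) and Ilk (-0.45, SE 0.07, adjusted p = 0.000137).

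Of 13 transcription factors known to act on smooth muscle genes, 6 were lower and 1 higher in HGPS against 2-mo WT (median -0.19), 0 lower and 1 higher in 24-mo WT, and 5 lower and 0 higher in HGPS against 24-mo WT. The shares of all tested genes, in the same order, were 21.2% lower and 22% higher, 5.38% and 6.29%, and 23.6% and 23.8%. The counts of 24-mo WT lie near them. Klf4, known as a repressor of the contractile genes, rose by 0.49 (SE 0.10, adjusted p = 0.000445) in HGPS and 0.37 (SE 0.10, adjusted p = 0.0138) in 24-mo WT, both against 2-mo WT. Prdm6, a smooth muscle regulator, fell, with a log2 fold change of -0.81 (SE 0.13, adjusted p = 7.21e-05).

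Members also varied together among mice of the same group. After removal of group means, 82.2% of member pairs had a correlation above 0 across the 18 mice, with a median Pearson r of 0.31. Within single groups the median r was 0.47 in 2-mo WT, 0.38 in HGPS and 0.22 in 24-mo WT (n = 6 each). The share of pairs above 0 was 83.2%, 78.1% and 59.9% in the same order, lowest in the old mice. No such share was computed for other genes. The mice share library size, scaling and cell makeup across all genes, so these values are a description. Flna (r = 0.85 with the mean of the other members), Myh11 (0.84) and Mylk (0.82) followed the rest most closely. Des (0.20), Cnn2 (0.16) and Tpm4 (-0.33) followed it least, and Srf gave 0.29 and Myocd 0.36.

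Change and transcript length were related in these libraries. Across all tested genes, the Spearman rank correlation between the log2 fold change of HGPS against 2-mo WT and the longest annotated transcript was -0.20, and across the 34 members it was -0.32. The median of all genes moved from 0.14 in the shortest of 4 equal length bins to -0.10 in the longest, while the member medians in the same bins were -0.60 (7 members), -0.36 (10), -0.74 (5) and -0.75 (12). In 24-mo WT against 2-mo WT the relation ran the other way, with 0.13 for all genes and 0.40 for members. Genes are not independent replicates, and no test was made of length as a part of the result.

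**Figure D5:**
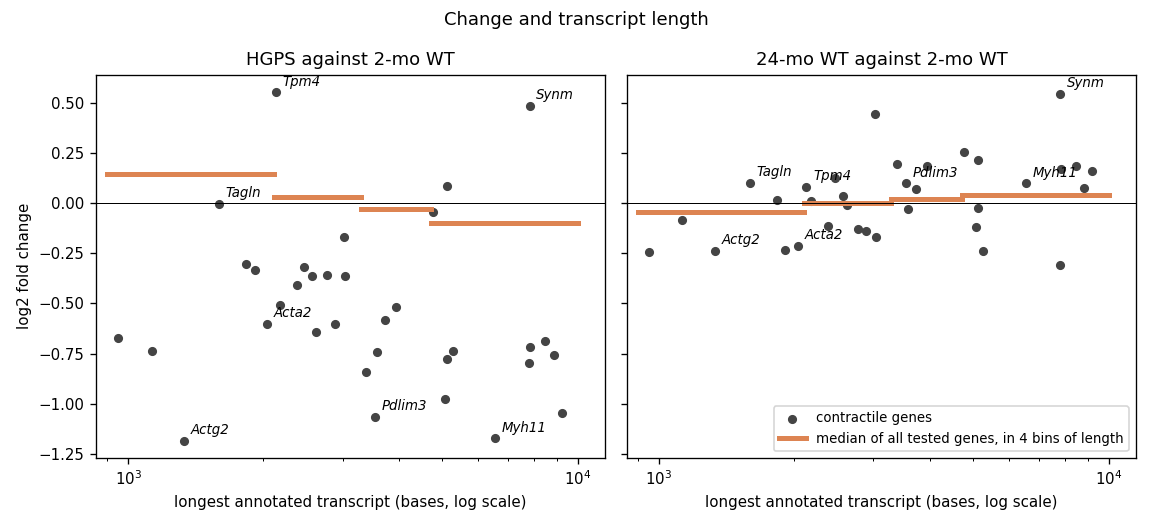
Log2 fold change of each member (points) against its longest annotated transcript in bases (log scale), for HGPS and for 24-mo WT against 2-mo WT; orange bars are the medians of all tested genes in 4 equal bins of length, drawn only over the plotted range. In HGPS the members lie mostly below the orange bars in every bin, and in 24-mo WT they scatter around them.

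The members lie on 17 chromosomes, and only Ppp1r12b, Lmod1 and Csrp1 have another member within 1 Mb. Those 3 lie in a stretch of chr1, with 369 kb between Lmod1 and Ppp1r12b and 352 kb between Lmod1 and Csrp1.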

How the data were processed

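The authors made stranded, rRNA-depleted paired-end libraries from descending aortas, quantified them with salmon against GENCODE M23 (GRCm38.p6), summed transcripts to genes with tximport and tested them with DESeq2; the submitters' processing notes name Bowtie 0.12.2. The deposited table holds estimated counts per gene as whole numbers, not normalized, for 18 mice. They were used as deposited, and library totals of 12413229 to 30844775 set the precision of low genes.

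The 15210 genes that reached 10 counts in 6 or more mice were fitted with edgeR 4.0.16 (R 4.3.3) in 1 quasi-likelihood model of the 3 groups, with TMM and Benjamini-Hochberg adjustment over all of them (15 residual degrees of freedom). Tests are two-sided. CPM used TMM library sizes, and log2 CPM a prior count of 2. Alternatives, among them DESeq2 1.42.0, numbered 11. The script was tested on simulated data. Groups and replicate numbers came from the labels, which do not say that replicates are separate animals (the methods speak of mice), so p-values measure the spread between these samples. Same-numbered mice of different groups did not deviate together.

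Members and lists were chosen with earlier results of these data known. All members were named in every comparison. The lowest, median and highest mouse of each group were given for members past the study's cut-offs in any comparison and for Myocd, Srf, Acta2, Myh11, Tagln and Cnn1, and for Tpm4 and Synm, chosen after their values were seen. Of the other genes of contraction, the 3 largest rises and falls without overlap were named. Lengths and positions came from GENCODE M21, which holds 54107 of the 54281 ids, and promoter windows from RefSeq (GRCm38.p6).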

Additional observations from a re-analysis of the deposited data

Results flagged for a closer look

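Of 102 groups of 6 mice, 8 held 1 mouse far from the other 5 by Dixon's test, where chance marks about 1 in 20 groups. In HGPS replicate 5, Tpm2 measured 1571 CPM (1044 to 1149 in the other 5), Tagln 7030 (4544 to 5350.4), Myl9 2817 (1857 to 2153) and Pdlim7 205 (168 to 174). In 24-mo WT replicate 1, Smtn measured 1048 CPM (514 to 583) and Ppp1r14a 85.7 (44.6 to 50.5). Cnn1 measured 1465 CPM in 24-mo WT replicate 3 (1214 to 1285), and Des 61.0 in 2-mo WT replicate 4 (49.1 to 51.3).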

How the results depend on the processing

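In HGPS against 2-mo WT, 358 of 374 member values over 11 alternatives kept their direction and side of the threshold, as did 326 of 340 in 24-mo WT against 2-mo WT (10 alternatives) and 357 of 374 in HGPS against 24-mo WT, and no called member changed direction. The counts of 28 lower and 2 higher were the same under each other scaling and DESeq2. With the brown fat and skeletal muscle scores as covariates 23 members were lower against 2-mo WT (median -0.56) and 20 against 24-mo WT (median -0.46). At an adjusted p under 0.05, 21.8% and 23.6% of all genes were called there in either direction. The study's cut-offs were passed by 6 and 4 members, and no share of all genes at these cut-offs was computed for the alternatives. In 24-mo WT against 2-mo WT 1 member was higher with the covariates, where 3.81% of all genes were called in either direction. HGPS replicates 4 to 6 have column numbers that run on from those of 2-mo WT and replicates 1 to 3 numbers that run on to those of 24-mo WT. With the first set alone 26 members were lower against 2-mo WT (median -0.58), where 26.4% of all genes were called in either direction. In that fit 11 members passed the cut-offs, and with the second set alone the median against 24-mo WT was -0.61. In 24-mo WT against 2-mo WT, 1 member was lower with TMM computed without the members, 2 with DESeq2, and 0 to 3 in the fits without 1 mouse. Calls against 2-mo WT were lost for Dstn, Myl6, Csrp1, Nexn and Fhl1 with the covariates and for Dstn and Nexn with HGPS replicates 4 to 6, and Des gained one with the 2 groups alone. Against 24-mo WT 15 values lost their call, 9 of them with the covariates, 5 for Myl6 under other settings and 1 for Fhl1 with no count filter. The cause was not tested.

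Some differences called in neither fit changed sign, and not all of them were near 0. In the model of the 3 groups Smtn gave 0.20 and Ppp1r12a -0.12 in 24-mo WT against 2-mo WT. Myocd gave 0.11 there in HGPS against 24-mo WT. The value of Tagln, HGPS against 2-mo WT, was 0.00296 with upper-quartile scaling, 0.011 with library totals, 0.038 with TMM without the members, 0.00296 with no count filter, 0.0056 with 50 counts as the minimum, 0.13 with the covariates and 0.019 with HGPS replicates 4 to 6, and 0.039 against 24-mo WT with the covariates. The covariates gave Cald1 0.031 in HGPS against 2-mo WT, and in 24-mo WT Tpm2 -0.11, Smtn -0.26, Ppp1r12a 0.089 and Actn1 -0.029. That of Srf, 24-mo WT against 2-mo WT, was 0.0029 with upper-quartile scaling and 0.0026 with 50 counts as the minimum, and Myocd gave -0.14 against 24-mo WT with HGPS replicates 1 to 3. Without 1 mouse, HGPS against 2-mo WT ranged from -0.084 to 0.0029 for Cald1 and -0.091 to 0.042 for Tagln, and 24-mo WT from -0.0043 to 0.030 for Tpm2, -0.014 to 0.26 for Smtn, -0.028 to 0.040 for Csrp1, -0.085 to 0.00030 for Pdlim7, -0.017 to 0.092 for Nexn, -0.093 to 0.14 for Myocd and -0.055 to 0.031 for Srf.

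Same-numbered mice correlated by -0.0247 to 0.172 between HGPS and 2-mo WT, above 0.1 in 2 of 6 pairs, and in 0 of 6 in each other comparison, so the numbers do not pair the mice. With a replicate block 28 members were lower and 2 higher in HGPS against 2-mo WT, and in 24-mo WT Cald1 lost its call and Myocd gave 0.021.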
